A study of Mus musculus with 12 samples.

Results

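The cell cycle and mitosis genes are a set of 38 mouse genes, from the helicase and clamp that copy DNA to the kinases, motors and chromosome proteins that divide it. They were taken by symbol, or by a known synonym, from the 27670 gene names on the array, and all 38 had at least 1 probe. The study measured RNA in mENT1 knockout mice, which lack a functional Slc29a1 gene for a transporter that carries nucleosides such as adenosine across the cell membrane, and in wild type mice. There were 4 groups of 3 arrays (lettered a, b and c), all of the FVB/N background and with no treatment named: hearts of knockout mice, hearts of wild type mice, and the kidneys of each genotype. The labels give no age or sex and do not say how the allele was made, and whole organs were used, so fewer dividing cells and less RNA per cell cannot be told apart. Values are log2 signals of the gene's brightest probe relative to the 75th percentile of its array, and a change is knockout minus wild type with its standard error (SE) from limma. Signals of different probes are not on a common scale, so levels are compared between arrays and never between genes.

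A cell commits to division when cyclin E and its kinase release the E2F factors, which switch on genes for DNA replication. The DREAM complex holds cyclin B, the mitotic kinases and the spindle genes off in resting cells and in G1, and later in the cycle the B-Myb-MuvB complex and the forkhead factor Foxm1 switch them on. Many of these genes carry CCAAT boxes and a cell cycle homology region (CHR) close to their start. In the adult, most heart muscle cells and kidney tubule cells have left the cycle, whereas thymocytes and blood precursors divide rapidly, so these transcripts are widely read as a sign of dividing cells in a tissue.

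The targeted gene followed the labels on every array. Slc29a1 had log2 signals of 1.38, 0.59 and 1.53 in knockout hearts, against 3.15, 3.23 and 3.36 in wild type hearts, a change of -2.08 ± 0.26 (SE), 4.22-fold lower (adjusted p = 0.0362). It had -1.43, -1.30 and -1.43 in knockout kidneys, against 1.51, 1.27 and 1.62 in wild type kidneys, 7.21-fold lower (adjusted p = 0.00552). The heart and kidney markers were each called higher in their own tissue, 8 of 8 in both cases. Several arrays stood apart. Xist, which coats the silenced X chromosome of females, gave a signal on knockout hearts a and b and knockout kidney a, with 0 of 4 Y-linked genes above background there, and the 9 other arrays had no Xist signal and 4 of 4 Y-linked genes. The 3 knockout hearts lay on 1 slide and the 3 wild type hearts on another, so in heart a slide effect and the genotype cannot be told apart. The columns of the authors' deposited table each follow the array of the same letter and tissue but of the other genotype, so every direction here rests on the scanner files, whose labels fit Slc29a1.

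Promoter sequences show how replication and mitosis genes of the set differ in what lies before their start. RefSeq promoters (build GRCm38.p6, 250 bases before to 50 after the start) were matched by symbol for 32 of the 38 genes. They were searched on both strands for the CCAAT box (CCAAT), for the CHR (TTTGAA) and for E2F sites (TTTCCCGC, TTTGGCGC, TTTCGCGC or TTTGCCGC), and matches that overlap were counted separately. A CCAAT box was present in 26 of the 32 genes (81.2%), against 41.1% of 27025 genes with a promoter in the table, with 7 of the 8 replication genes (87.5%) and 19 of the 24 mitotic and cyclin genes (79.2%) holding it. The CHR was present in 18 of 32 (56.2%), against 20.2% of all genes, with 2 of the 8 replication genes (25.0%) and 16 of the 24 others (66.7%) holding it. E2F sites were present in 5 of the 8 replication genes (62.5%) and 0 of the 24 others, against 2.6% of all genes. These matches describe letters in a window and say nothing about which factor bound in these tissues. Capitals mark the matches in 5 windows, chosen to show 3 mitotic genes and 2 helicase subunits:
Ccnb2 (chr9:70421545-70421654, minus strand, 100 bases before to 10 after the start): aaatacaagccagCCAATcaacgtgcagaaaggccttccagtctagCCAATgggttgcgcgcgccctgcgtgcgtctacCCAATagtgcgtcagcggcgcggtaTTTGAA
Cdc20 (chr4:118437344-118437423, minus strand, 80 bases before the start): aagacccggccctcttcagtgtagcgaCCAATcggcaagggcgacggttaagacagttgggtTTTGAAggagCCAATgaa
Top2a (chr11:99024190-99024299, minus strand, 110 bases before the start): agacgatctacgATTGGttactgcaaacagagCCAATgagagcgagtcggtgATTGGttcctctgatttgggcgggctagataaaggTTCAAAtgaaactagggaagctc
Mcm6 (chr1:128359706-128359825, minus strand, 120 bases before the start): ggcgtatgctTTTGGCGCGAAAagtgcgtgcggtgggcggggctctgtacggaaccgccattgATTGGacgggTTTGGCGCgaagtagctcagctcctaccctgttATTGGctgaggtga
Mcm5 (chr8:75109349-75109508, plus strand, 160 bases before the start): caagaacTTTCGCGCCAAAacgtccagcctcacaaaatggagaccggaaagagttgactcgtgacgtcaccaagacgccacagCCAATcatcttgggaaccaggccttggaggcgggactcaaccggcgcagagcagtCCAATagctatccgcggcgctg

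The windows of the 3 mitotic genes hold both CCAAT boxes and a CHR. Ccnb2 has CCAAT boxes starting 87, 54 and 21 bases before the start and a CHR just after it. Cdc20 has a CHR starting 18 bases before the start, with CCAAT boxes at 53 and 8 bases. Top2a has a CHR at 23 bases, with CCAAT boxes in either orientation at 98, 78 and 58 bases. Over the full promoters, Ccnb2 and Top2a have 2 CHR matches each, and Top2a has 6 CCAAT boxes. Both helicase windows also hold CCAAT boxes, at 57 and 14 bases before the start in Mcm6 and at 77 and 22 bases in Mcm5, but no CHR. They hold overlapping E2F sites, at 110 and 106 bases before the start in Mcm6, which has a further one at 47 bases, and at 153 and 149 bases in Mcm5.

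In heart, the genes of the set had higher mean signals in knockout than in wild type without exception, but the difference came from 2 of the 3 knockout hearts and no gene passed the test. Of the 38 genes 37 were tested, and all 37 had a positive change, where 42.2% of the 17478 genes tested did. The median change was 1.47, against -0.07 over all genes tested. The changes ran from 0.59 for Cenpf to 2.64 for Aurkb, which was near background in wild type hearts, and 2.62 for Kif11. None of the 37 was called at an adjusted p under 0.05 (0.664% of all genes were), and the lowest adjusted p was 0.113, for Kif11. At an unadjusted p under 0.05, 14 genes of the set were higher (7.23% of all genes). With the letters as a block this count was 25 (9.49% of all genes), again with 0 genes called. It was 32 in the fit of all 12 arrays (8.96%), 27 under normexp background correction (7.33%), and 5 or 6 when any 1 heart other than knockout heart c was left out (4.24% to 5.82%).

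The 3 knockout hearts were not alike. Relative to the wild type mean of each gene, the median gene of the set stood at 1.63 in knockout heart a, 2.69 in b and -0.04 in c, and at 0.02, 0.14 and -0.16 in wild type hearts a, b and c. Hearts a and b lay above all 4 other hearts for 37 of 37 genes (15.3% of all genes). Knockout heart c lay above the 3 wild type hearts for 11 genes, below them for 12 and within their range for 14, where the shares over all genes were 27.3% above, 25.1% below and 47.6% within. The groups therefore did not overlap for 11 genes (9.14% of all genes). Without knockout heart c, 34 of the 37 genes were called, all higher, with Pcna, Mcm4 and Cenpf not called, and 11.4% of all genes were called. With knockout heart c as the only knockout array, which has no Xist signal like the wild type hearts, the median change was -0.04, 16 of 37 changes were positive and 0 genes were called, the lone array being assumed to vary as the wild type hearts do.

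**Figure D1:**
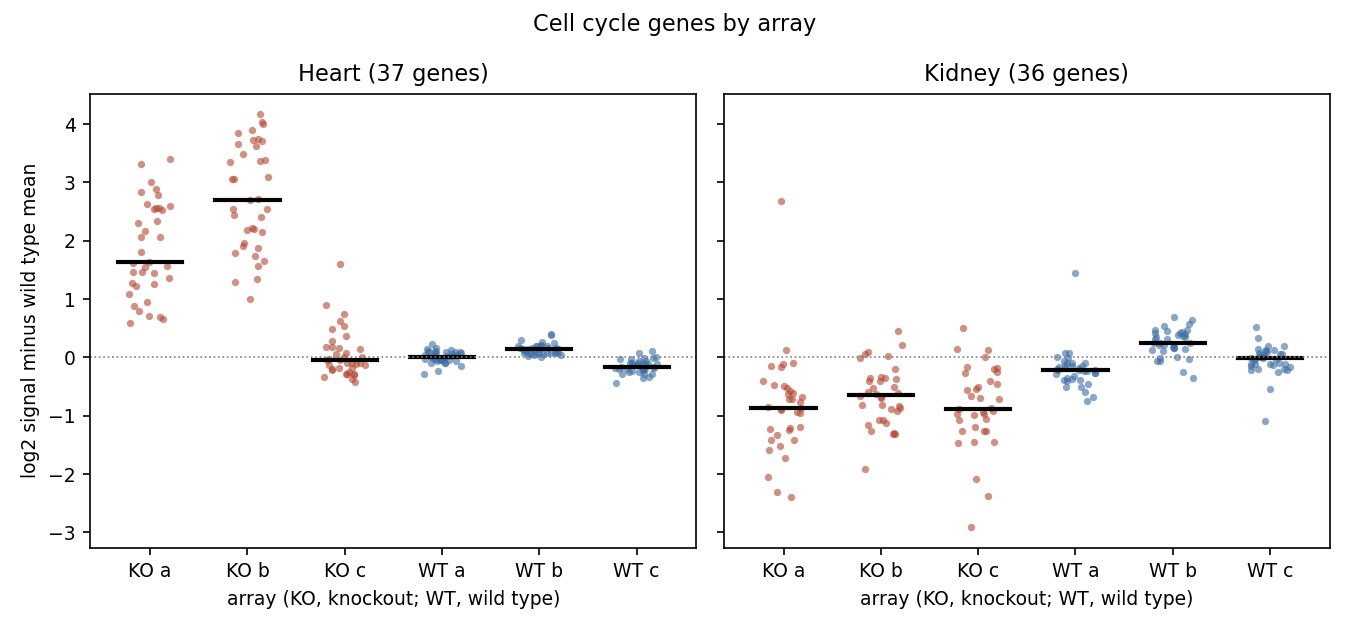
Each point is 1 cell cycle or mitosis gene on 1 array, as its log2 signal minus the mean of the 3 wild type arrays of that tissue; bars are medians over the 37 genes tested in heart (left) and the 36 in kidney (right), with knockout arrays left of wild type arrays. Knockout hearts a and b lie high with medians of 1.63 and 2.69, knockout heart c lies at -0.04, and the 3 knockout kidneys lie low with medians of -0.86, -0.64 and -0.88.

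Replication genes had the smallest median change of the 6 roles in heart, at 1.08 over 9 of 9 tested. Pcna, the clamp that holds DNA polymerase on its template, had signals of 4.13, 5.01 and 3.45 in knockout hearts, against 3.5, 3.48 and 3.32 in wild type hearts, a change of 0.76 ± 0.38 (SE; 1.69-fold, adjusted p = 0.356). Mcm4, a subunit of the MCM helicase that opens DNA at origins, had 3.20, 4.34 and 2.50 in knockout hearts, against 2.62, 2.55 and 2.44 in wild type hearts (0.81 ± 0.44 (SE), adjusted p = 0.386). In both genes knockout hearts a and b were above every other heart and c lay inside the wild type range. The other helicase subunits Mcm2, Mcm3, Mcm5, Mcm6 and Mcm7 had changes of 0.77 to 1.29. The loading factor Cdc6 had 1.34 ± 0.59 (SE) and Cdc45, which joins the active helicase, 1.08 ± 0.45 (SE).

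Cyclins and Foxm1 had a median change of 1.80 over 5 of 5 tested in heart. Ccnb2, a cyclin that drives mitotic entry with Cdk1, had 2.40, 3.27 and -0.43 in knockout hearts, against -0.13, -0.07 and -0.47 in wild type hearts, a change of 1.97 ± 0.90 (SE; 3.92-fold, adjusted p = 0.334). Ccne1, the cyclin of the entry into S phase, had -0.01, 0.75 and -0.75 in knockout hearts, against -1.05, -0.83 and -0.83 in wild type hearts (0.90 ± 0.37 (SE), adjusted p = 0.313). For Ccne1 the groups did not overlap, whereas for Ccnb2 knockout heart c was among the wild type hearts. Ccnb1, the other B-type mitotic cyclin, had a change of 2.26 ± 1.04 (SE), the S phase and mitotic cyclin Ccna2 1.80 ± 0.82 (SE), and Foxm1, a transcription factor of mitotic genes, 1.12 ± 0.54 (SE).

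The kinases and checkpoint proteins had a median change of 2.04 over 7 of 8 tested. Aurkb, the kinase of the chromosomal passenger complex, had -2.58, -2.34 and -5.07 in knockout hearts, against -6.02, -5.60 and -6.30 in wild type hearts, a fitted change of 2.64 ± 0.72 (SE; adjusted p = 0.218). It was well above background on 3 knockout hearts and on 1 wild type heart, so the size of the change is uncertain, and the groups did not overlap. Aurka, a kinase of centrosomes and spindle poles, had 1.05, 2.05 and -1.32 in knockout hearts, against -1.01, -0.90 and -1.11 in wild type hearts (1.60 ± 0.80 (SE), adjusted p = 0.357). Here knockout heart c was below the wild type hearts. Mad2l1, a spindle checkpoint protein, had -0.47, 0.35 and -1.74 in knockout hearts, against -1.53, -1.37 and -1.78 in wild type hearts (0.94 ± 0.50 (SE)). The mitotic kinase Plk1 and the checkpoint kinases Bub1 and Bub1b had changes of 2.04 to 2.23, and the kinase Melk 1.47. Ttk, a checkpoint kinase, was not tested, being well above background on 2 knockout hearts and 1 wild type heart only, with -5.53, -4.90 and -7.55 in knockout hearts, against -8.81, -6.72 and -9.04 in wild type hearts.

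Passenger complex and anaphase genes had a median change of 1.68 over 5 of 5 tested. Cdc20, an activator of the anaphase promoting complex, had 1.98, 2.96 and 0.29 in knockout hearts, against 0.46, 0.59 and 0.48 in wild type hearts (1.23 ± 0.63 (SE), adjusted p = 0.363). Cdca8, a passenger complex subunit, had 2.03, 3.02 and -0.32 in knockout hearts, against -0.06, 0.10 and -0.17 in wild type hearts (1.62 ± 0.79 (SE), adjusted p = 0.353). Both were lower in knockout heart c than in any wild type heart. Birc5, the passenger protein survivin, had 2.29 ± 0.84 (SE), and Ube2c, the ubiquitin-conjugating enzyme of the anaphase promoting complex, 1.68 ± 0.47 (SE), both with no overlap. Cdca3, a factor of mitotic entry, had 2.05 ± 0.92 (SE).

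Kinetochore, spindle and cytokinesis genes had a median change of 1.41 over 9 of 9 tested. Cenpe, a kinetochore motor, had 1.40, 2.26 and -1.41 in knockout hearts, against -1.02, -1.07 and -1.28 in wild type hearts (1.87 ± 0.89 (SE), adjusted p = 0.343). Kif20a, a kinesin of the late spindle, had 1.42, 2.42 and -0.47 in knockout hearts, against -0.18, -0.05 and -0.15 in wild type hearts (1.25 ± 0.68 (SE), adjusted p = 0.385). Cenpf, a kinetochore protein of late G2 and mitosis, had the smallest change of the set, with 0.07, 0.77 and -0.63 in knockout hearts, against -0.57, -0.48 and -0.51 in wild type hearts (0.59 ± 0.34 (SE), adjusted p = 0.403). For all 3 genes knockout heart c was the lowest heart.

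Kif11, Cenpa and Nusap1 were higher in knockout heart c than in any wild type heart, and are among the 11 such genes of the set. Kif11, the kinesin that pushes spindle poles apart, had -2.0, -0.87 and -2.97 in knockout hearts, against -4.80, -4.17 and -4.74 in wild type hearts, a change of 2.62 ± 0.52 (SE; 6.16-fold). It was singled out after its values were seen, for the lowest adjusted p of the set, and a fit of all 12 arrays gave it an adjusted p of 0.0302, as the only gene of the set called (1.18% of all genes). Cenpa, the histone of centromeres, had -1.19, -0.90 and -1.36 in knockout hearts, against -2.18, -1.74 and -1.78 in wild type hearts (0.75 ± 0.19 (SE), adjusted p = 0.191). In Kif11, Cenpa and Nusap1 all 3 knockout hearts lay above all 3 wild type hearts. Kif23, a kinesin of cytokinesis, had -1.06, -0.13 and -2.59 in knockout hearts, against -2.57, -2.60 and -2.85 in wild type hearts. Nusap1, Prc1 and Tpx2, which bundle or nucleate spindle microtubules, had changes of 2.18 ± 0.76 (SE), 1.06 ± 0.63 (SE) and 1.79 ± 0.76 (SE).

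Chromosome structure was represented by Mki67 and Top2a. Mki67, which encodes the proliferation marker Ki-67 on the surface of mitotic chromosomes, had 2.72, 3.53 and 0.79 in knockout hearts, against 0.30, 0.24 and -0.05 in wild type hearts, a change of 2.18 ± 0.66 (SE; 4.55-fold, adjusted p = 0.247). All 3 knockout hearts lay above the wild type hearts. Top2a, the topoisomerase that untangles replicated chromosomes, had -0.80, 0.05 and -4.12 in knockout hearts, against -4.11, -3.85 and -4.41 in wild type hearts, a change of 2.50 ± 1.02 (SE; adjusted p = 0.313).

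**Figure D2:**
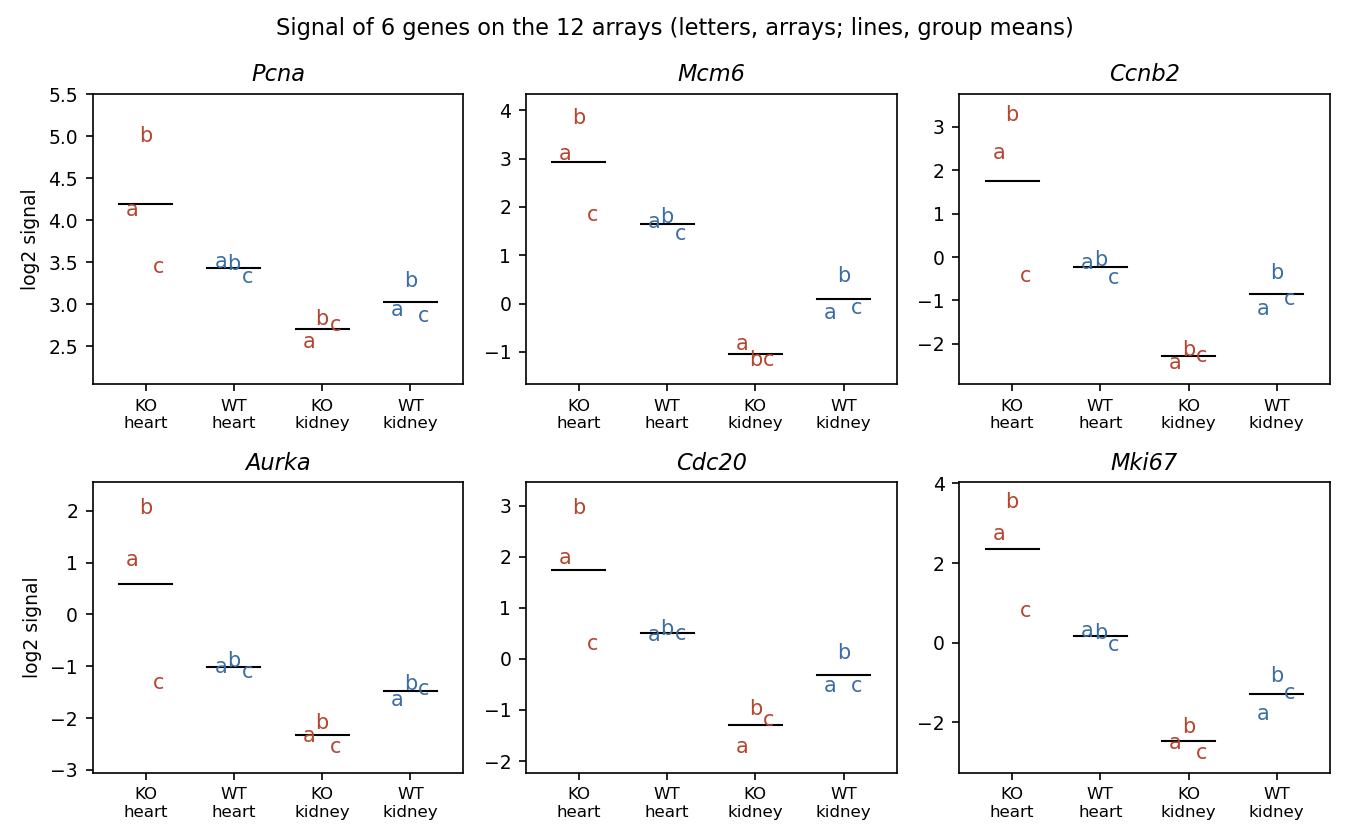
Log2 signals of 6 genes of the set on the 12 arrays, with letters for arrays and lines for group means; within each tissue knockout stands left of wild type, and the vertical scale differs between genes. Knockout hearts a and b lie above all other hearts in each panel, and the 3 knockout kidneys lie below the 3 wild type kidneys. Over the set, 26 of 36 genes separated this way in kidney, the 6 shown among them. Mcm4 and Cenpe, each among the brightest of its role, overlapped in kidney and are not shown.

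Thymocyte and T cell markers moved with the set in heart. Their 13 tested genes of 17 all had positive changes (42.2% of all genes), with a median of 3.75. At an unadjusted p under 0.05, 13 of 13 were higher (7.23% of all genes), and none was called. Their summed linear signal was 202.3, 395.8 and 3.73 in knockout hearts a, b and c, and between 2.22 and 4.60 in wild type hearts, and on knockout hearts a and b 17 of 17 were well above background, against 13 of 17 on each other heart. Dntt, the terminal transferase of immature lymphocytes, named here after its values were seen, had 5.65, 6.71 and -3.40 in knockout hearts, against -4.73, -5.30 and -5.10 in wild type hearts. Knockout hearts a and b are also the 2 hearts with Xist signal. Neutrophil precursor markers had a median deviation from the wild type mean of 3.63, 3.19 and 1.36 in knockout hearts a, b and c. Red cell precursor markers stood at 0.41, 0.96 and 2.54, and 1 of them, Hemgn, was called higher in knockout (adjusted p = 0.00876) and was not well above background on any wild type heart. Of the 6 tested, 5 had positive changes and 1, Epor, had a negative one (-0.91 ± 0.18 (SE), adjusted p = 0.116), with no overlap. Liver markers stood at 2.91, 3.01 and 3.93, and 5 of 5 tested were called higher (0.578% of all genes). B cell markers stood at 0.84, 0.77 and 0.45, and lung markers at 10.42, -0.04 and 0.31. Macrophage, endothelium, fibroblast and cardiomyocyte markers had negative median changes of -0.42, -0.39, -0.30 and -0.19. Thymocyte and T cell markers stood at 4.90, 5.99 and 0.28 in knockout hearts a, b and c. The part of these other cell types in the changes of the set was not tested.

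**Figure D3:**
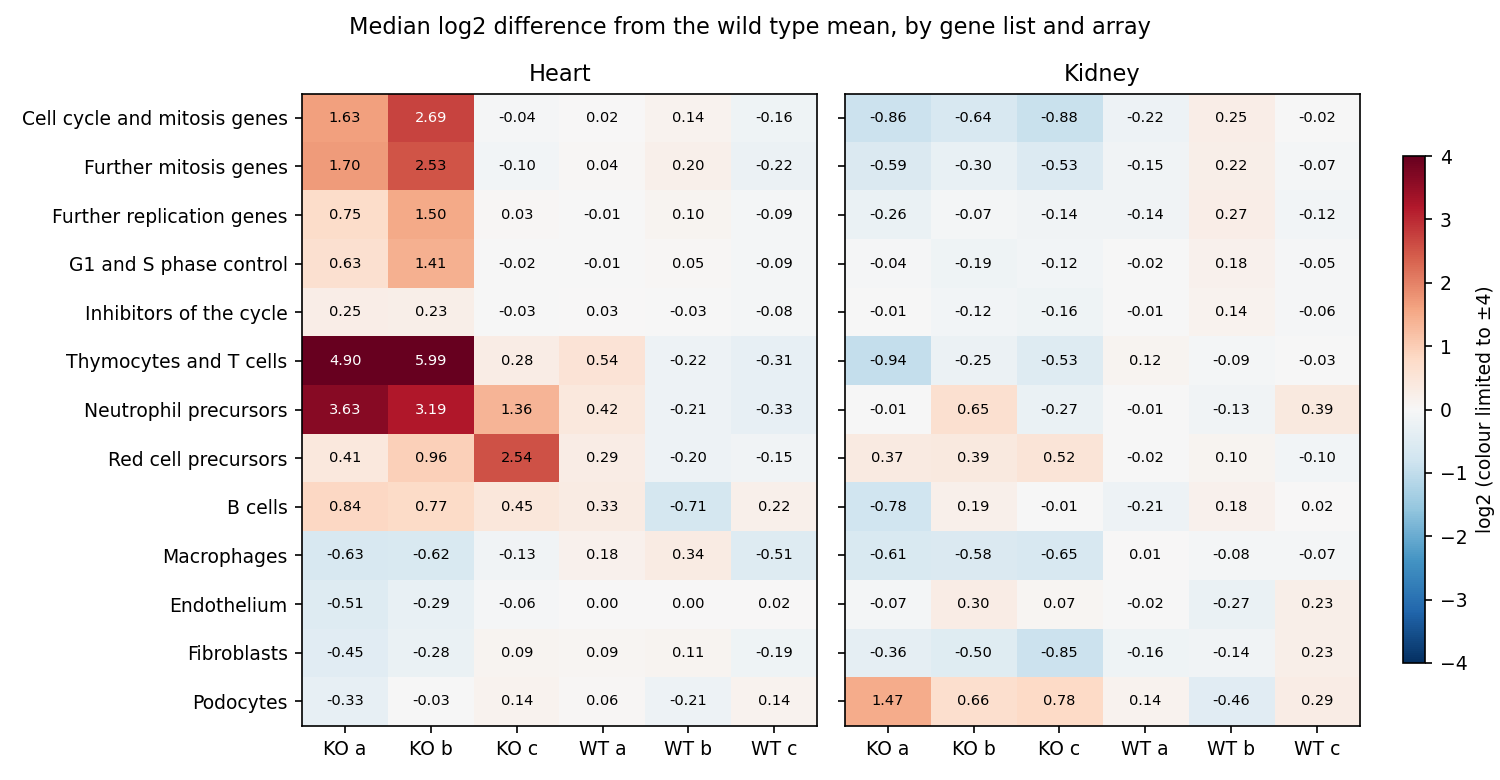
Each cell gives the median log2 difference of a gene list from the wild type mean of its tissue on 1 array, for heart (left) and kidney (right), with knockout arrays left of wild type arrays; red is higher and blue lower, with the colour limited to 4 log2 units either way. On knockout hearts a and b the cell cycle genes, further mitosis genes, neutrophil precursor markers and thymocyte and T cell markers are all high. On the knockout kidneys the cell cycle genes, further mitosis genes, and macrophage, fibroblast, and thymocyte and T cell markers are low.

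In kidney, most genes of the set had lower signals in knockout than in wild type, in all 3 knockout kidneys, but again no gene passed the test. Of 36 genes tested 34 had a negative change, where 58.5% of the 17161 genes tested did, with a median of -0.79, against -0.07 over all genes. The exceptions were Ube2c and Mcm4. None was called at an adjusted p under 0.05 (0.163% of all genes were), and the lowest adjusted p values were 0.0832 for Ccnb2 and 0.0963 for Kif20a. At an unadjusted p under 0.05, 25 genes were lower (7.44% of all genes), and in the fit of all 12 arrays this count was 5 (8.05%). Under normexp background correction it was 0 (1.93% of all genes), and 10 (5.47%) without 5 spots of knockout kidney c that lay far below their local background, a setting chosen after seeing the data. The 3 knockout kidneys lay below the 3 wild type kidneys for 26 of 36 genes (12.6% of all genes). The median gene stood at -0.86, -0.64 and -0.88 in knockout kidneys a, b and c, and at -0.22, 0.25 and -0.02 in wild type kidneys a, b and c. Within the 1 slide that held kidneys of both genotypes (knockout kidneys b and c, wild type kidneys a and b) 0 genes of the set were called (1.69% of all genes) and 20 were lower at an unadjusted p under 0.05 (12% of all genes). Under normexp background correction the median was 0.15, and -0.32 when 5 spots of knockout kidney c whose background far exceeded their signal were left out.

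Replication genes again had the smallest median change of the 6 roles, at -0.32 over 9 of 9 tested. Pcna had 2.55, 2.82 and 2.75 in knockout kidneys, against 2.94, 3.28 and 2.86 in wild type kidneys (-0.32 ± 0.18 (SE), adjusted p = 0.504), with no overlap. Mcm4 had 1.62, 1.93 and 1.74 in knockout kidneys, against 1.66, 1.98 and 1.53 in wild type kidneys (0.04 ± 0.18 (SE), adjusted p = 0.939), and here the groups were mixed. Mcm6, the helicase subunit whose promoter is printed above, had the largest difference of the group, with -0.83, -1.16 and -1.17 in knockout kidneys, against -0.19, 0.57 and -0.09 in wild type kidneys (-1.15 ± 0.24 (SE), adjusted p = 0.127). Mcm3 and Mcm5 also did not overlap, at -0.48 ± 0.16 (SE) and -0.38 ± 0.15 (SE), nor did Cdc6, at -0.41 ± 0.19 (SE). Mcm2, Mcm7 and Cdc45 overlapped between the groups, with changes of -0.11, -0.22 and -0.15.

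The 5 genes of the group of cyclins and Foxm1 had lower signals in every knockout kidney than in any wild type kidney, with a median change of -1.10. Ccnb2 had -2.43, -2.13 and -2.29 in knockout kidneys, against -1.19, -0.38 and -0.96 in wild type kidneys, a change of -1.44 ± 0.24 (SE), 2.72-fold lower. Ccne1 had -3.20, -3.02 and -3.15 in knockout kidneys, against -2.65, -1.98 and -2.65 in wild type kidneys (-0.69 ± 0.22 (SE), adjusted p = 0.255). The knockout kidneys lay close together for both genes, with wild type kidney b the highest. Ccnb1 had -1.35 ± 0.25 (SE; adjusted p = 0.102), Ccna2 -1.10 ± 0.33 (SE) and Foxm1 -0.56 ± 0.15 (SE).

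Of the kinases and checkpoint genes 6 of 8 were tested, with a median change of -0.90. Aurka had -2.35, -2.10 and -2.56 in knockout kidneys, against -1.65, -1.35 and -1.45 in wild type kidneys (-0.85 ± 0.18 (SE), adjusted p = 0.128). Mad2l1 had -2.20, -2.39 and -2.50 in knockout kidneys, against -1.98, -2.11 and -2.08 in wild type kidneys (-0.31 ± 0.15 (SE), adjusted p = 0.456). Neither gene overlapped between the groups. Bub1 was not well above background on any knockout kidney and was so on 3 wild type kidneys. With knockout signals raised to a floor, the dimmest signal well above background on each array, its mean was 2.07-fold lower in knockout. That value carries no sampling error and is not a lower limit of the change. The fit gave an adjusted p of 0.153, with measured means of -7.95 in knockout and -5.92 in wild type. Melk had -1.10 ± 0.22 (SE), Plk1 -0.95 ± 0.23 (SE) and Bub1b -0.77 ± 0.30 (SE), the last with overlap. Aurkb and Ttk were not well above background on any kidney array.

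Passenger complex and anaphase genes had a median change of -0.81 over 5 of 5 tested. Cdc20 had -1.73, -0.97 and -1.20 in knockout kidneys, against -0.53, 0.11 and -0.52 in wild type kidneys (-0.99 ± 0.27 (SE), adjusted p = 0.206), with no overlap. Cdca8 had -1.34, -0.28 and -0.91 in knockout kidneys, against -0.94, -0.38 and -0.88 in wild type kidneys, and the groups were mixed (-0.11 ± 0.31 (SE)). Ube2c had -0.07, -2.73 and -3.00 in knockout kidneys, against -2.95, -2.52 and -2.80 in wild type kidneys (0.83 ± 0.74 (SE), adjusted p = 0.662). Its positive change came from knockout kidney a, the kidney with Xist signal, and without that array the change was -0.11. Birc5 had -1.20 ± 0.31 (SE) and Cdca3 -0.81 ± 0.24 (SE), both without overlap.

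All 9 kinetochore, spindle and cytokinesis genes had negative changes in kidney, with a median of -0.83. Cenpa had -7.10, -6.62 and -7.09 in knockout kidneys, against -3.26, -5.06 and -5.80 in wild type kidneys (-2.23 ± 0.61 (SE), adjusted p = 0.198). It was well above background on 1 knockout kidney and on 3 wild type kidneys, and the wild type kidneys were themselves widely spread. Its order against Bub1 is not settled, since both were near background in knockout kidneys. Kif20a had -1.59, -1.70 and -1.85 in knockout kidneys, against -0.88, -0.87 and -0.90 in wild type kidneys (-0.83 ± 0.15 (SE)), with no overlap. Cenpe had -2.33, 0.04 and 0.12 in knockout kidneys, against -0.18, 0.67 and -0.57 in wild type kidneys (-0.70 ± 0.70 (SE), adjusted p = 0.693). Knockout kidney a alone was low for Cenpe, and without it the change was 0.10. Cenpf had -4.91, -5.02 and -5.78 in knockout kidneys, against -4.21, -3.39 and -3.51 in wild type kidneys (-1.53 ± 0.32 (SE), adjusted p = 0.127), and Kif23 had -5.01, -5.16 and -5.40 in knockout kidneys, against -4.80, -4.79 and -4.01 in wild type kidneys. Both were lower in every knockout kidney. Prc1 and Tpx2 had -1.21 ± 0.25 (SE) and -0.83 ± 0.19 (SE) without overlap, and Kif11 and Nusap1 had -0.82 ± 0.34 (SE) and -0.50 ± 0.46 (SE) with overlap.

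Mki67 had -2.53, -2.11 and -2.77 in knockout kidneys, against -1.80, -0.85 and -1.26 in wild type kidneys, a change of -1.17 ± 0.29 (SE), 2.25-fold lower (adjusted p = 0.168). Top2a had -6.28, -5.82 and -6.35 in knockout kidneys, against -5.60, -5.31 and -5.36 in wild type kidneys (-0.72 ± 0.20 (SE), adjusted p = 0.201). Both were lower in every knockout kidney than in any wild type kidney.

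Markers of macrophages, of fibroblasts and of thymocytes and T cells also had mostly negative changes in kidney. Macrophage markers had a median change of -0.60, with 6 of 7 negative, and stood at -0.61, -0.58 and -0.65 in knockout kidneys a, b and c, and fibroblast markers had -0.45, with 4 of 5 negative. Thymocyte and T cell markers had a median change of -0.63 over 13 of 17 tested, with 11 of 13 negative. At an unadjusted p under 0.05, 7 of them were lower (7.44% of all genes). They stood at -0.94, -0.25 and -0.53 in knockout kidneys a, b and c. Their summed linear signal, in which the brightest genes weigh most, lay between 5.87 and 8.03 in knockout kidneys and between 6.89 and 7.0 in wild type kidneys. Ptcra, Rag1, Rag2 and Themis, which mark thymocytes, were not well above background on any kidney. Podocyte markers had a median of 0.84, with 5 of 5 positive, and none of these markers was called. Neutrophil precursor, red cell precursor, endothelium and tubule markers had medians of 0.09, 0.53, 0.24 and -0.19. The tubule markers differed in sign, with Slc12a3, the thiazide-sensitive cotransporter, at -1.60 ± 0.31 (SE; 3.03-fold lower, adjusted p = 0.115) and Aqp2, the water channel of collecting ducts, at 1.29 ± 0.25 (SE; 2.44-fold, adjusted p = 0.118), both without overlap. Liver markers had a median change of 0.73 and stood at 1.61, 0.54 and 0.03 in knockout kidneys a, b and c. Apoa2, a lipoprotein gene of the liver, had -1.60, -1.09 and -3.40 in knockout kidneys, against -4.88, -5.90 and -4.82 in wild type kidneys (adjusted p = 0.115), and was well above background on 2 of the wild type kidneys. These 3 genes were named after their values were seen. The part of these cell types in the changes of the set was not tested.

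The change in heart was set against the change in kidney in 1 fit of all 12 arrays. Of 36 genes tested in both tissues, 34 were higher in knockout heart and lower in knockout kidney, where 25.0% of 16142 genes were, and Mcm4 and Ube2c were the exceptions. The difference of the changes, heart minus kidney, was positive for 36 of 36 genes (51.3% of all genes), with a median of 2.35, against 0.02 over all genes. At an adjusted p under 0.05, 0 were called (0.676% of all genes), while 31 had a positive difference at an unadjusted p under 0.05 (8.39% of all genes). The lowest adjusted p values were 0.0506 for Kif11, with a difference of 3.44 ± 0.67 (SE), 0.0943 for Mki67 (3.35 ± 0.78 (SE)) and 0.0952 for both Cenpf (2.12 ± 0.50 (SE)) and Cenpa (2.98 ± 0.70 (SE)). The groups did not overlap in either tissue, with heart higher and kidney lower, for 6 genes (1.23% of genes tested in both tissues), Mcm5, Mcm6, Ccne1, Birc5, Cenpa and Mki67. Without knockout heart c, 33 genes of the set were called (6.99% of all genes). The labels name 3 mice per genotype for both tissues. Xist signal was present on knockout hearts a and b but, among knockout kidneys, on a only. As labelled, the knockout hearts and kidneys therefore cannot all come from the same 3 mice. Some animals may still be shared, but the letters do not link them, since letter b differed in Xist signal. The fit treats all arrays as independent.

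**Figure D4:**
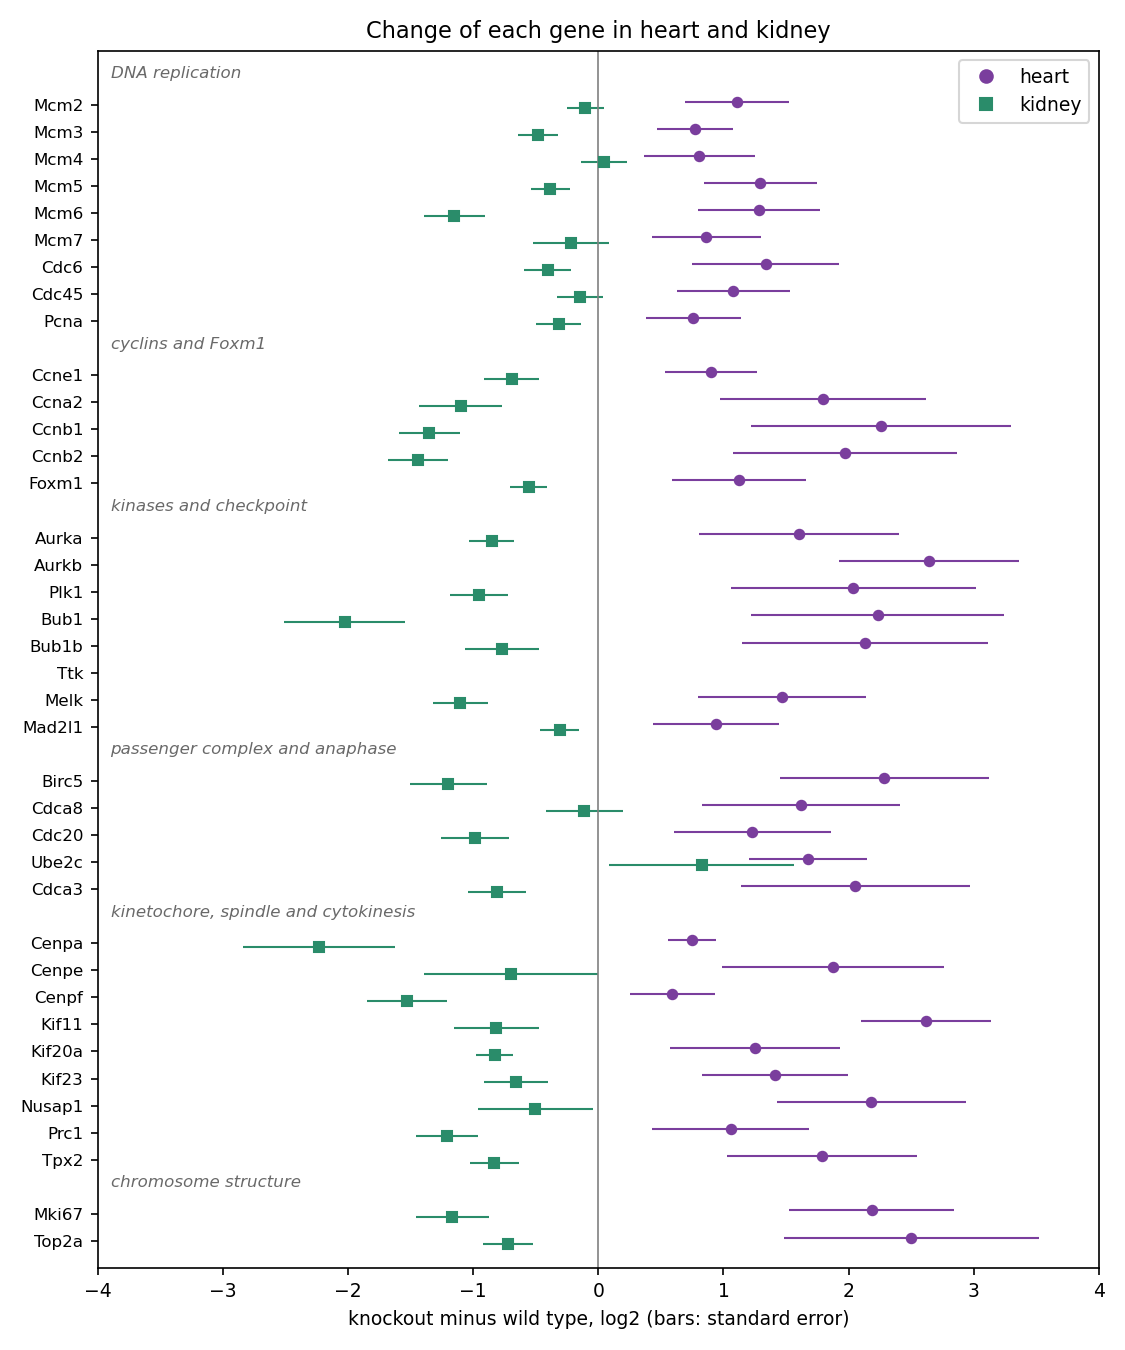
Knockout minus wild type change of each gene in log2 units, with its standard error, in heart (circles) and kidney (squares), by role; Ttk has no value and Aurkb has none in kidney. Heart changes lie right of 0 for 37 of 37 genes and kidney changes left of 0 for 34 of 36.

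By role, the medians of heart minus kidney were 3.29 for chromosome structure, 2.90 for cyclins and Foxm1, 2.74 for kinases and checkpoint, 2.58 for kinetochore and spindle, 2.22 for passenger complex and anaphase and 1.23 for DNA replication. These are medians over 2 to 9 genes that share arrays and were not tested against each other.

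Wild type hearts had higher signals than wild type kidneys for most of the set, so the tissues did not start from one level. Of 37 genes tested 33 had a higher mean in heart (52.2% of all genes), and 10 were called, all higher in heart, where 58.5% of all genes were called and 30.6% were called higher in heart. Calls were therefore no more frequent in the set than among all genes. The 10 were Mcm3, Mcm6, Cdc6, Ccne1, Melk, Cenpa, Cenpf, Kif23, Prc1 and Mki67. Cenpf showed the largest difference, 3.19 ± 0.36 (SE; 9.1-fold), with a mean of -0.52 ± 0.05 in wild type hearts and -3.71 ± 0.44 in wild type kidneys (SD, n = 3 each). Cenpa followed with 2.81 ± 0.50 (SE) and Cdc6 with 2.39 ± 0.48 (SE). Kif23, Mcm6, Ccne1 and Mcm3 differed by 1.49 to 1.86. The spread in this fit comes from all 4 groups, the uneven knockout hearts included, and 24 genes were called without knockout heart c (60.1% of all genes) and 16 without knockout heart b (59.0%). Without the 3 arrays with Xist signal 34 were called (65.6% of all genes), 31 higher in heart and 3, Mcm7, Cdca3 and Cenpe, lower.

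The means of the 4 groups show how far the knockout hearts spread. For Ccnb2 they were 1.75 ± 1.93 in knockout hearts, -0.22 ± 0.22 in wild type hearts, -2.28 ± 0.15 in knockout kidneys and -0.84 ± 0.42 in wild type kidneys (SD, n = 3 each). For Mki67 they were 2.35 ± 1.41 in knockout hearts, 0.16 ± 0.19 in wild type hearts, -2.47 ± 0.33 in knockout kidneys and -1.30 ± 0.48 in wild type kidneys. The SD of knockout hearts exceeds that of every other group in both genes.

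Other genes of the cell cycle, from lists that do not hold the set, gave 0 called genes in either tissue. Further mitosis genes had positive changes for 30 of 30 tested in heart (median 1.39) and negative ones for 21 of 25 in kidney (median -0.34). Their brightest members in heart were Ncapd2, a condensin subunit, with 2.38, 2.75 and 1.56 in knockout hearts, against 1.20, 1.32 and 1.61 in wild type hearts, and Incenp, the scaffold of the passenger complex, with 2.62, 3.28 and 1.16 in knockout hearts, against 1.20, 1.22 and 1.06 in wild type hearts. For both genes knockout hearts a and b exceeded the 4 other hearts. In kidney the brightest were Spc25, of the Ndc80 kinetochore complex, at 0.34 ± 0.46 (SE), and Smc4, a condensin subunit, at -0.56 ± 0.25 (SE). Further replication genes were positive for 29 of 30 in heart (median 0.76) and negative for 23 of 29 in kidney (median -0.15), and the brightest, Gmnn, an inhibitor of origin licensing, had changes of -0.24 ± 0.17 (SE) in heart and -0.03 ± 0.23 (SE) in kidney. Next in brightness were Gins4, of the GINS complex of the helicase, at 0.14 ± 0.13 (SE) in heart, and Tyms, which makes thymidylate, at -0.04 ± 0.19 (SE) in kidney.

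Genes of G1 and S phase control were positive for 20 of 25 in heart (median 0.70) and negative for 15 of 24 in kidney (median -0.21). Ccnd3, a D-type cyclin, had 3.71, 4.63 and 3.11 in knockout hearts, against 2.86, 2.85 and 3.03 in wild type hearts, and Ccnd1, another, had 3.12, 3.1 and 2.72 in knockout kidneys, against 3.42, 4.05 and 3.69 in wild type kidneys. In both the groups did not overlap. The D-type cyclin Ccnd2 had a change of -0.22 ± 0.15 (SE) in heart, and Cks2, a Cdk-binding protein, -0.40 ± 0.19 (SE) in kidney. Inhibitors of the cycle were positive for 11 of 17 in heart (median 0.10) and negative for 12 of 17 in kidney (median -0.14). Btg1, an antiproliferative gene, had changes of 0.54 ± 0.32 (SE) in heart and 0.03 ± 0.14 (SE) in kidney. Ccng1, cyclin G1, a target of p53, had -0.45 ± 0.27 (SE) in heart, and Gadd45g, a gene of growth arrest, had -0.48 ± 0.58 (SE) in kidney.

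Probes of the same gene went the same way wherever several could be tested, for 11 of 11 genes in heart and 8 of 8 in kidney. With 3 arrays against 3, an exact permutation test of a single gene cannot give a two-sided p below 0.1. Nothing says that replicate arrays of a group came from separate litters or days, and the p-values measure the spread between these arrays.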

How the data were processed

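Total RNA of 12 organs was labelled with Cy3 and hybridised to 1-colour Agilent mouse arrays, 1 array per sample. The scanner files the authors deposited give each spot's intensity as processed (background-subtracted) by Agilent software; the file headers name Feature Extraction 9.5.3.1 and probe positions on build mm7, and the submitters' processing notes name 9.1. The authors also deposited a table of log2 values, which from the values themselves appear scaled per array and centred per tissue, used here only as an alternative with columns matched to the arrays they follow (r of 0.99985 or above).

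Processed signals were put on the log2 scale, less the 75th percentile of the array (451.2 to 878.0 in intensity units), over 41174 probes; 157 to 331 spots per array were saturated. Control spots and spots marked as outliers were left out, spots of a probe averaged, and a probe with a missing value was left out of that fit. Testing needed a probe well above background on every array of either genotype in that tissue. A gene is its brightest tested probe. Probe names came from accession (22944), symbol (6664) or synonym (3108) in a RefSeq table, and 8458 kept the name in the files. Groups were compared with limma 3.58.1 in R 4.3.3 over all genes, adjusted by Benjamini-Hochberg, with no block, slide or sex term; calls needed an adjusted p under 0.05. All 12 arrays in 4 groups gave the difference between tissues. The code was tested on simulated data. The number of arrays limits the precision.

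The genes of the set, the other lists, the rule for naming genes and the tests were chosen with earlier results of these data known. Array values are given for the 2 brightest genes per role, for called genes (up to 6 per comparison) and for the largest and smallest change per tissue; other lists are represented by called genes (up to 4 per direction) or else the 2 brightest, some by their change alone. Other genes with array values were chosen after their values were seen. Same-letter hearts deviated together across genes (r of 0.385, 0.186 and 0.256), same-letter kidneys did not (0.104, -0.011 and -0.147), so the letter block was read as a pairing in heart only. Alternatives were scaling, background correction, filters, mean of probes, the deposited table, the letter block, slide, Xist signal and leaving out each array.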

Additional observations from a re-analysis of the deposited data

How the results depend on the processing

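The heart result rests on 2 of 3 knockout arrays. With the 2 hearts and 1 kidney with Xist signal left out, and equally with Xist signal as a covariate, the median change of the set in heart was -0.042 and 21 genes turned negative: Aurka -0.31, Bub1 -0.19, Bub1b -0.25, Ccna2 -0.13, Ccnb1 -0.28, Ccnb2 -0.21, Cdc20 -0.22, Cdc6 -0.025, Cdca3 -0.13, Cdca8 -0.28, Cenpe -0.29, Cenpf -0.11, Foxm1 -0.090, Kif20a -0.34, Mad2l1 -0.18, Mcm4 -0.042, Mcm7 -0.10, Melk -0.090, Plk1 -0.38, Prc1 -0.42 and Tpx2 -0.040. In kidney the same settings, and leaving out knockout kidney a, turned Cdca8 (0.14), Cenpe (0.10), Mcm7 (0.12) and Ube2c (-0.11). Slide as a block, and values within 1 slide, turned Cdca8 (0.064), Mcm7 (0.071) and Ube2c (-0.13); in heart no slide term could be estimated. Leaving out 1 kidney array at a time, the change ranged from -0.39 to 0.14 for Cdca8, which also turned without wild type kidney b (0.065), from -1.12 to 0.10 for Cenpe, from -0.40 to 0.12 for Mcm7, from -0.11 to 1.36 for Ube2c and from -0.053 to 0.17 for Mcm4, which turned without knockout kidney b (-0.041) or wild type kidney c (-0.053).

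Leaving out 1 array at a time, the median ranged from 0.86 to 2.15 in heart and from -0.88 to -0.69 in kidney. Calls in the set then ranged from 0 to 34 in heart and from 0 to 0 in kidney. For the difference between tissues they ranged from 0 to 33 (33 without knockout heart c, Cenpa and Kif11 without wild type kidney a, Cenpa without wild type kidney c). Between wild type tissues they ranged from 7 to 24, all higher in heart, where 27.1% to 32.4% of all genes were called higher. The fit of all 12 arrays called 1 gene in heart (1.18% of all genes). The mean of probes, median scaling and the Xist covariate each called 1 for the difference between tissues (0.601% to 0.682% of all genes called higher). It was Kif11 in every case. Between wild type tissues 34 genes were called without the arrays with Xist signal, 31 higher in heart (34.4% of all genes) and 3 lower (31.2%). With the covariate 16 were called, all higher in heart (32.0% of all genes). Under normexp 3 were called, all higher in heart (15.7% of all genes).

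Normexp background correction moved the kidney median to 0.15 and turned 23 genes: Bub1 0.70, Bub1b 0.67, Ccna2 0.095, Ccnb1 0.46, Ccne1 0.18, Cdc45 0.63, Cdc6 0.78, Cdca3 0.012, Cdca8 0.063, Cenpa 0.34, Cenpf 0.41, Foxm1 0.34, Kif11 0.71, Kif23 0.63, Mad2l1 0.31, Mcm2 0.12, Mcm4 -0.16, Melk 0.48, Nusap1 0.21, Plk1 0.25, Prc1 0.036, Top2a 0.70 and Tpx2 0.44. Knockout kidney c had 5 spots whose background far exceeded their signal. The 5th percentile of its normexp signals was 908, and 83.39 without those spots, against 55 to 76.45 on the other arrays. An alternative chosen after seeing the data, normexp without those spots, gave a kidney median of -0.32, with 2 of 36 genes positive and 0 called.

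With the letters as a replicate block, 0 genes of the set were called in heart, 0 in kidney, 0 for the difference between tissues and 12 between wild type tissues, against 0, 0, 0 and 10 without it. Between wild type tissues 30.6% of all genes were called higher in heart with the block, and 30.6% without it. The pairing held in heart only by the check of deviations. Over all genes, calls ranged from 17 (normexp) to 1984 (without knockout heart c) in heart, against 116, from 0 (normexp) to 291 (within a slide) in kidney, against 28, and from 0 (normexp) to 1128 (without knockout heart c) for the difference, against 109. The deposited table and quantile scaling changed no direction of a median and called 0 genes of the set in heart and kidney. Aurkb, Bub1, Cenpa and Kif11 lay close to background on some arrays, which limits their fold changes.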
